A study of Mus musculus with 6 samples.

Results

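Mitosis and spindle genes make up the machinery with which a dividing cell condenses its chromosomes, attaches them to a spindle and separates them. The 58 genes described here were chosen by name, as the rows of the deposited mouse gene table that carry 1 of 58 listed symbols and have values. The symbols were listed with earlier results of these data known, so counts of these genes beside all genes are descriptions only. All 58 were found among 17189 genes with values. They were compared in primary articular chondrocytes of wild-type (WT) mice, the resident cells of joint cartilage, which secrete its matrix. RNA-seq gave 6 libraries in 3 groups of 2. The control group was labelled control CCs, the next aging SNL CCs, and the last aging SNL CCs+Spesolimab. Spesolimab is a therapeutic antibody against the receptor of the IL-36 cytokines, which the title of the series names beside aged skin and experimental osteoarthritis. The labels expand neither SNL nor CCs, and no age or sex of the mice and no dose of the antibody was given in the sources used here. They also do not say whether replicates were separate animals or cultures, so every p-value rests on the spread between these 6 libraries alone, and that spread may be technical.

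Entry into mitosis is driven by the kinase CDK1 with cyclin A or cyclin B. Aurora and Polo kinases then build the spindle, kinetochores couple chromosomes to microtubules, and the checkpoint holds back the anaphase-promoting complex until every chromosome is attached. Most of these genes are transcribed mainly late in the cell cycle. In resting cells the DREAM complex, built on the MuvB core, silences many of them through a promoter element called the cell cycle genes homology region (CHR). In cycling cells MuvB instead joins B-MYB and FOXM1 at the same promoters. Articular chondrocytes divide rarely in the adult joint and resume division in culture. In a bulk sample, fewer dividing cells and less of these RNAs per cell cannot be told apart.

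Promoter sequences were taken from RefSeq (mouse build GRCm38.p6), which held the window from 250 bases before to 50 after the start of 48 of the 58 genes. Each stretch printed here is the last 120 bases before the annotated start, 5′ to 3′ on the strand of the gene. Capitals mark the CHR, TTTGAA or its reverse complement TTCAAA, and the CCAAT box, CCAAT or its reverse complement ATTGG. The first 6 genes carry both elements close to the start. Mad2l1 and Pttg1 hold neither in this stretch, and are shown because Mad2l1 was low with the others in the cells under aging SNL while Pttg1 was not. The stretches all lie upstream of the first exon. That of Cdk1 lies on the minus strand at chr10:69352913-69353032, Top2a on the minus strand at chr11:99024190-99024309 and Cdc20 on the minus strand at chr4:118437344-118437463. Ube2c lies on the plus strand at chr2:164769809-164769928, Kif11 on the plus strand at chr19:37376262-37376381 and Espl1 on the plus strand at chr15:102296173-102296292. Mad2l1 lies on the plus strand at chr6:66535101-66535220 and Pttg1 on the minus strand at chr11:43425982-43426101.
Cdk1: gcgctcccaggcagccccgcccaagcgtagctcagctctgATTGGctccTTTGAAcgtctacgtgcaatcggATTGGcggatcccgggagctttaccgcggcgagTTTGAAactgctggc
Top2a: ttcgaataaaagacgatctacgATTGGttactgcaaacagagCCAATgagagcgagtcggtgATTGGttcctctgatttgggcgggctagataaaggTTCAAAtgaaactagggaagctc
Cdc20: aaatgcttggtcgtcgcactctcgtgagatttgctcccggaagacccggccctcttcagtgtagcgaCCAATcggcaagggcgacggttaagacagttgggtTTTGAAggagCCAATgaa
Ube2c: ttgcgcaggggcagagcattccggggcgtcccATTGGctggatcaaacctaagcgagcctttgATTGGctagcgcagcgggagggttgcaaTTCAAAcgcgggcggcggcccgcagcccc
Kif11: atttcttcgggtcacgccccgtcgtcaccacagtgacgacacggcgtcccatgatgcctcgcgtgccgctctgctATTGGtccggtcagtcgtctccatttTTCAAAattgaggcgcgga
Espl1: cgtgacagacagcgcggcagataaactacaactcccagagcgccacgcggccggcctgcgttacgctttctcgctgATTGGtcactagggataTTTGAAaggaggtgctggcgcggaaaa
Mad2l1: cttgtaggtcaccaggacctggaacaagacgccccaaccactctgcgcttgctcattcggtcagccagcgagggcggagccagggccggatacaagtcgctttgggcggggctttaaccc
Pttg1: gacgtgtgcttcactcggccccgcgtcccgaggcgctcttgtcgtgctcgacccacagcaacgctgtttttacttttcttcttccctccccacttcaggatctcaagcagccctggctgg

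Over whole windows, searched on both strands, TTTGAA was found in 34 of the 48 genes (70.8%) and in 20.2% of all 27025 genes with a promoter entry. CCAAT was found in 34 (70.8%) against 41.1% of all genes, and both elements together in 29 (60.4%) against 7.97%. The CHR also lay close to the start in most of these genes: 29 (60.4%) had it within 50 bases, against 5.72% of all genes. The related letters TTTAAA were in 11 (22.9%) against 14.9%. The E2F letters TTCCCGC, which E2F factors bind at many S-phase genes, were in 1 gene, Plk4 (2.08% against 5.29%). The related gene lists followed below also held these elements. By list, the CCAAT box was in 40% to 72.2% of genes, most often in DNA replication genes, then in other spindle and cytokinesis genes (68.2%). The CHR was in 20% to 46.2%, most often in condensin and cohesin genes, and both together in 6.67% to 31.8%. Each motif was counted on its own, so a base may belong to 2 of them. The windows of all genes were not matched for base composition, and a match is a description of the letters only.

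**Figure D1:**
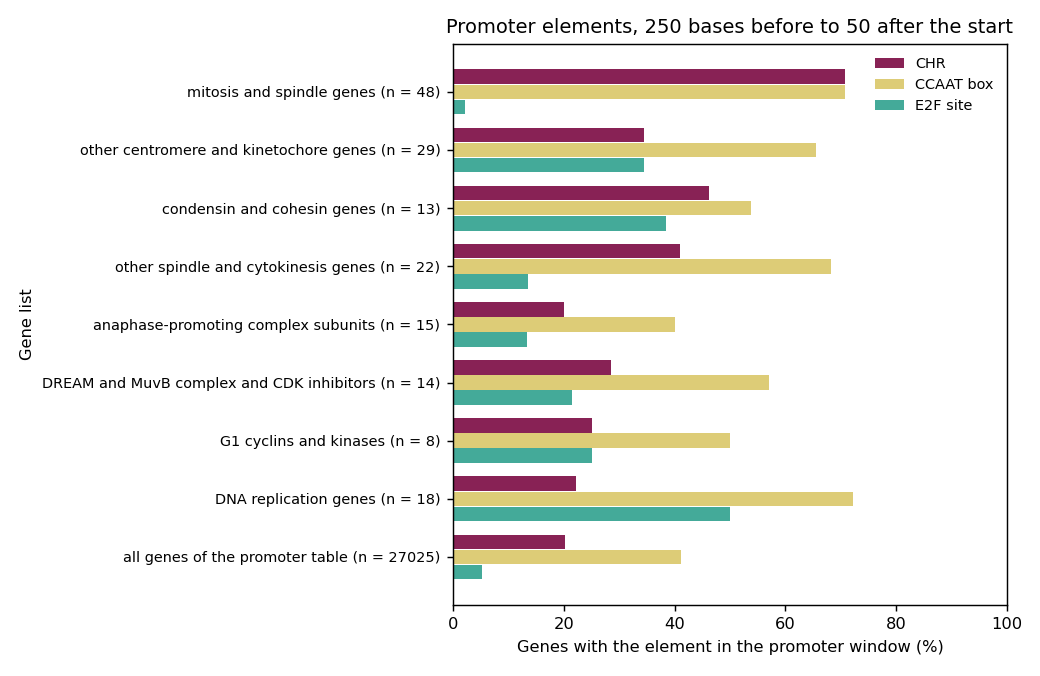
Share of genes (percent) whose promoter window holds each element, for the 48 mitosis and spindle genes with an entry, for the related gene lists and for all 27025 genes. The CHR is in 70.8% of the mitosis and spindle genes and 20.2% of all genes. The E2F letters are in 2.08% of the mitosis and spindle genes and 50% of the DNA replication genes. The CCAAT box is in 70.8% and 72.2% of these 2 lists.

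The libraries held 16566791 to 17312833 counts, and the 58 genes had 20 to 2111 counts per library, so none was near 0 and all 58 passed the filter on low counts. Levels in CPM are counts scaled to library depth but not to gene length. In aging SNL replicate 1 other genes differed widely from the remaining libraries: the summed level of 10 chondrocyte markers was 14140 CPM there and 66940 to 82240 CPM in the other 5, with all 10 detected in every library. Between the aging SNL replicates 13.9% of 13399 tested genes differed more than 2-fold, against 2.11% in control and 2.6% with spesolimab. The summed level of 11 macrophage markers was 102.4 and 23.4 CPM in the control libraries, 126.6 and 38.6 CPM under aging SNL, and 135.5 and 35.0 CPM under spesolimab, none at 0. It was thus higher in replicate 1 of every group. The 10 synovial fibroblast markers summed to 8501 and 7085 CPM in the control libraries, 5790 and 5738 CPM under aging SNL, and 7691 and 6444 CPM under spesolimab, none at 0. Under aging SNL this sum was below both controls, but most of it was Col1a1, with means of 6470 CPM in control and 3879 CPM under aging SNL. Of the 9 tested fibroblast markers, 7 in aging SNL replicate 1 and 4 in replicate 2 were above both controls. In the same libraries 2 and 3 were below both. The 4 neutrophil and lymphocyte markers with values, of 8, summed above both controls under aging SNL, at 4.29 and 4.76 CPM against 1.26 and 0.84 CPM. Under spesolimab they summed to 0.58 and 2.00 CPM. In each library, 1 or 2 of these 4 were at 0. The 8 endothelial and mural markers summed to 148.7 CPM in aging SNL replicate 1 and to 287.5 to 525.5 CPM elsewhere, with at most 1 at 0. The part of these marker levels in the results was not tested. Calls and medians for aging SNL are given with all libraries and without each of its replicates. Without 1 of them, the remaining aging SNL library is assumed to vary like the other groups.

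The mitosis and spindle genes as a set stood lower in both groups of aging SNL cells than in control. Their summed level was 914.1 and 1227 CPM in the control replicates, 574.2 and 431.7 CPM under aging SNL, and 433.7 and 417.2 CPM under spesolimab. The control libraries were the highest and did not overlap with the others. On a log2 scale relative to the mean of the control libraries, the median gene of the set stood at -0.23 and 0.23 in the control libraries, -0.93 and -1.31 under aging SNL, and -1.36 and -1.43 under spesolimab, while the median of all 13399 genes stayed between -0.01 and 0.01. In aging SNL replicate 2, 58 of 58 genes were below both control libraries. In aging SNL replicate 1, 54 were, and 2, Ckap2 and Pttg1, were above both. The control replicates were themselves apart, with 57 of 58 genes lower in replicate 1 and a median difference of -0.46, and Pttg1 the exception.

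**Figure D2:**
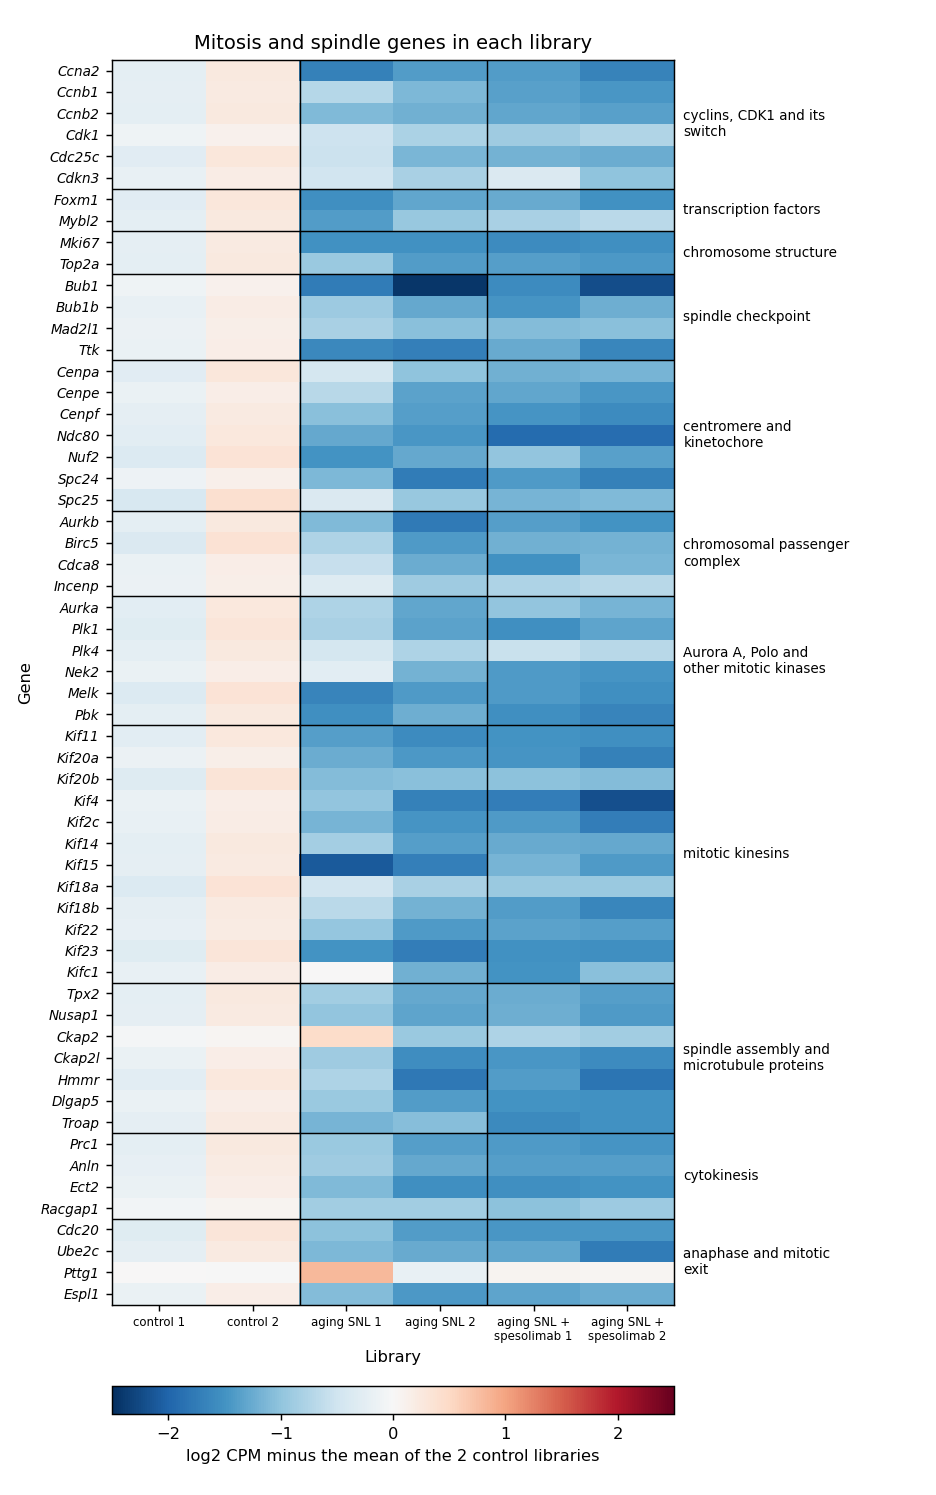
Log2 CPM of each of the 58 genes (rows, by role) in each of the 6 libraries (columns), relative to the mean of the 2 control libraries. The aging SNL and spesolimab columns are low for nearly all rows, and Pttg1, Ckap2 and Kifc1 depart from this in aging SNL replicate 1.

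**Figure D3:**
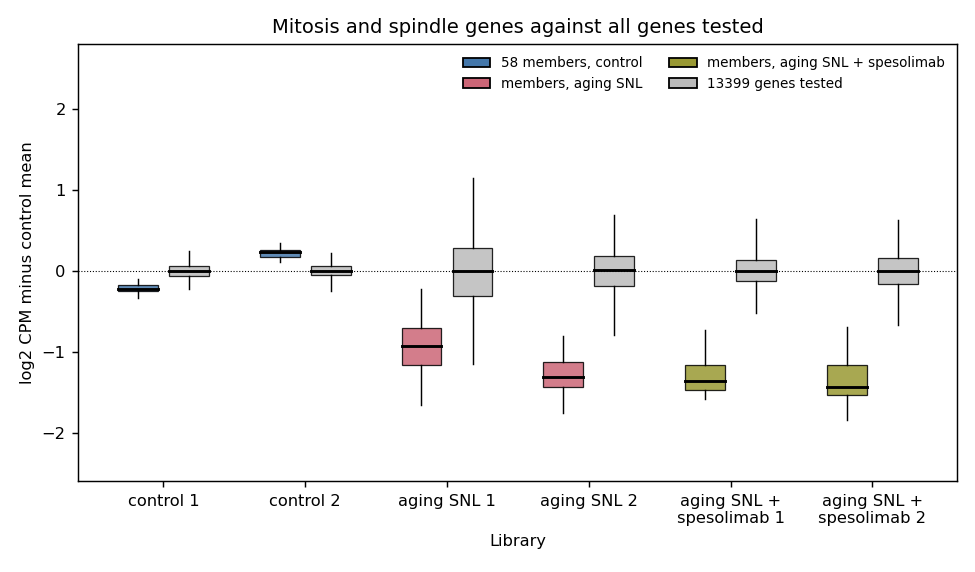
Distribution over the 58 genes of log2 CPM relative to the mean of the control libraries, in each library, beside the same for all 13399 tested genes in grey (line, median; box, quartiles; whiskers, percentiles 5 to 95). The medians of the 58 genes lie at -0.93 and -1.31 for the aging SNL libraries and at -1.36 and -1.43 for the spesolimab libraries, and those of all genes lie near 0.

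Aging SNL was first set against control. In edgeR's quasi-likelihood test of all 6 libraries with Benjamini-Hochberg adjustment over 13399 genes, 0 of the 58 genes and 0 genes in all (0%) passed an adjusted p of 0.05. The lowest adjusted p of the set was 0.108, for Mki67. At an unadjusted p under 0.05, 50 of 58 genes were lower, against 6.15% of all genes, and 1694 genes passed in either direction. The fold change was negative for 57 of 58, with a median log2 fold change of -1.17 against 0.01 over all genes. The groups did not overlap for 54 of the 58, all lower in aging SNL, against 21.1% of all genes. As the set was listed with earlier results known, these shares are descriptions and not tests of the set. DESeq2 called 38 of the 58 lower (1.63% of all genes). With only the 4 libraries compared, edgeR called 0 of the 58 and 0 of 13218 genes.

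The spread between libraries, estimated as a biological coefficient of variation of 0.205 with all 6, was 0.0925 when either aging SNL replicate was left out. These 2 fits hold 1 aging SNL library each and share the control and spesolimab libraries, so their calls are not independent. The share of all genes called in both fits was not counted, so the counts by role given below for both fits have no background beside them. Fell and rose mean an adjusted p under 0.05 in the fit named. Without aging SNL replicate 1, 35 of the 58 fell (1.61% of all genes called lower). Without replicate 2, 39 fell (12.3% of all genes) and 2, Pttg1 and Ckap2, rose (13.4%). Of these, 31 genes fell in both fits, and DESeq2 called the same 31. The median log2 fold change of the set was -1.35 without replicate 1 and -0.96 without replicate 2.

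Of the cyclins, CDK1 and the proteins that switch it, 6 of 6 were lower in aging SNL than in control, and 4 fell without either aging SNL replicate: Ccna2, Ccnb1, Ccnb2 and Cdk1. Ccna2 encodes cyclin A2, which partners CDK2 in S phase and CDK1 at mitotic entry. Its level was 25.3 and 35.9 CPM in the control libraries, 9.26 and 11.45 CPM under aging SNL, and 11.3 and 9.42 CPM under spesolimab. Every library outside control was thus below the lower control, and the log2 fold change of aging SNL against control was -1.56 ± 0.23 (SE, n = 2 per group, edgeR adjusted p = 0.155 with 6 libraries and 0.0354 without aging SNL replicate 1). Ccnb1, the cyclin B that carries CDK1 into mitosis, stood at 17.7 and 24.3 CPM in the control libraries, 12.6 and 9.46 CPM under aging SNL, and 8.06 and 7.53 CPM under spesolimab. The order of its groups did not overlap, with spesolimab lowest. Cdk1 itself stood at 31.4 and 36.6 CPM, 23.5 and 19.6 CPM, and 18.3 and 20.1 CPM in the same order. Its log2 fold change was -0.65 ± 0.14 (edgeR adjusted p = 0.211), the smallest decrease of the 6. Ccnb2, a second cyclin B, stood at 11.8 and 16.5 CPM in the control libraries, 6.46 and 5.96 CPM under aging SNL, and 5.61 and 5.36 CPM under spesolimab. Cdc25c, a phosphatase that activates CDK1, and Cdkn3, a phosphatase that acts on CDKs, did not pass in either of those fits, at 1.29 to 4.60 CPM over the libraries.

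Both transcription factors that drive the late cell cycle programme were lower in aging SNL, and neither fell in both fits without an aging SNL replicate. Foxm1 stood at 12.2 and 17.9 CPM in the control libraries, 5.03 and 5.90 CPM under aging SNL, and 6.13 and 5.06 CPM under spesolimab (log2 fold change of aging SNL -1.46 ± 0.25, edgeR adjusted p = 0.174). Mybl2, which encodes B-MYB, stood at 3.60 and 5.10 CPM, 1.55 and 2.17 CPM, and 2.39 and 2.65 CPM in the same order (-1.22 ± 0.32, adjusted p = 0.268). For Mybl2 the spesolimab libraries lay above both aging SNL libraries and below both controls.

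Both genes of chromosome structure, Mki67 and Top2a, fell without either aging SNL replicate. Mki67 encodes Ki-67, which coats mitotic chromosomes and is the usual marker of cycling cells. It stood at 84.2 and 114 CPM in the control libraries, 34.04 and 34.04 CPM under aging SNL, and 32.9 and 33.7 CPM under spesolimab. The 4 libraries outside control were within 2 CPM of each other, and the log2 fold change of aging SNL was -1.54 ± 0.16 (edgeR adjusted p = 0.108, and 0.0162 and 0.0022 without aging SNL replicate 1 and 2). Top2a, topoisomerase II alpha, which untangles sister chromosomes, stood at 85.4 and 118 CPM in the control libraries, 52.8 and 38.1 CPM under aging SNL, and 38.6 and 37.0 CPM under spesolimab (-1.16 ± 0.22, adjusted p = 0.179). Aging SNL replicate 1 lay between control and the other libraries for this gene.

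All 4 spindle checkpoint genes fell without either aging SNL replicate. Bub1, a checkpoint kinase at the kinetochore, stood at 10.1 and 11.7 CPM in the control libraries, 3.17 and 1.93 CPM under aging SNL, and 3.56 and 2.24 CPM under spesolimab. Its log2 fold change of -2.09 ± 0.35 (edgeR adjusted p = 0.173) was the largest decrease of the 58. Ttk, the kinase MPS1 that starts checkpoint signalling, stood at 5.09 and 6.504 CPM in the control libraries, 1.80 and 1.69 CPM under aging SNL, and 2.34 and 1.77 CPM under spesolimab. Bub1b and Mad2l1, parts of the complex that restrains CDC20, had log2 fold changes of -1.11 ± 0.22 and -0.95 ± 0.16.

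Of 7 centromere and kinetochore genes, 7 were lower in aging SNL, and 3, Cenpe, Cenpf and Spc24, fell in both fits. Cenpf, a large kinetochore protein, stood at 28.8 and 39.5 CPM in the control libraries, 16.2 and 12.9 CPM under aging SNL, and 12.03 and 11.24 CPM under spesolimab (-1.23 ± 0.20, edgeR adjusted p = 0.173). Ndc80, the microtubule-binding arm of the kinetochore, stood at 6.34 and 9.08 CPM, 3.04 and 2.71 CPM, and 1.93 and 1.94 CPM in the same order. The spesolimab libraries were the lowest for both genes. Spc25, a partner of Ndc80, overlapped between aging SNL and control, with 8.76 CPM for aging SNL replicate 1 against 8.46 CPM for control replicate 1.

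In the chromosomal passenger complex, which corrects wrong attachments and guides cytokinesis, 4 of 4 were lower in aging SNL. Aurkb, its kinase Aurora B, stood at 7.89 and 11.04 CPM in the control libraries, 4.29 and 2.65 CPM under aging SNL, and 3.504 and 3.24 CPM under spesolimab (-1.45 ± 0.31, edgeR adjusted p = 0.211), and was the only member of the 4 that fell in both fits. Birc5, its subunit survivin, stood at 6.97 and 11.6 CPM, 5.22 and 3.31 CPM, and 3.85 and 3.88 CPM in the same order. Among the other mitotic kinases, 6 of 6 were lower and 0 fell in both fits. Plk1, Polo-like kinase 1, stood at 10.2 and 15.5 CPM in the control libraries, 7.08 and 4.88 CPM under aging SNL, and 4.26 and 4.94 CPM under spesolimab. Pbk, a mitotic kinase, stood at 10.5 and 14.6 CPM, 4.22 and 5.24 CPM, and 4.20 and 3.88 CPM in the same order, and Melk, a kinase of dividing cells, at 5.54 and 9.03 CPM, 2.17 and 2.59 CPM, and 2.57 and 2.35 CPM. For these 3 kinases the control libraries were above the other 4.

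The 12 mitotic kinesins, motors that slide and carry spindle microtubules and chromosomes, were lower in aging SNL without exception, and 7 fell in both fits. Kif20a, a motor of the central spindle needed for cytokinesis, stood at 31.8 and 39.1 CPM in the control libraries, 14.9 and 13.0 CPM under aging SNL, and 12.6 and 10.8 CPM under spesolimab (-1.35 ± 0.16, edgeR adjusted p = 0.155). Kif11, the motor that pushes spindle poles apart, stood at 18.6 and 27.0 CPM, 8.57 and 7.47 CPM, and 7.88 and 7.65 CPM in the same order (-1.51 ± 0.22, adjusted p = 0.155). The 4 libraries outside control lay close together for Kif11. Kifc1, a motor that focuses spindle poles, named here after its values were seen, stood at 11.4 and 14.8 CPM in the control libraries, 13.0 and 5.602 CPM under aging SNL, and 4.56 and 6.24 CPM under spesolimab. Aging SNL replicate 1 was thus inside the control range.

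Of 7 spindle assembly and microtubule proteins, Ckap2l, Dlgap5, Nusap1 and Tpx2 fell in both fits. Nusap1, which bundles spindle microtubules, stood at 11.2 and 15.5 CPM in the control libraries, 6.58 and 5.24 CPM under aging SNL, and 5.61 and 4.88 CPM under spesolimab. Dlgap5, a factor that stabilises spindle fibres, stood at 8.97 and 11.4 CPM, 5.28 and 3.80 CPM, and 3.504 and 3.47 CPM in the same order. Both genes were highest in control and had log2 fold changes in aging SNL of -1.18 ± 0.23 and -1.17 ± 0.24. All 4 cytokinesis genes fell in both fits. Ect2, the exchange factor that activates RhoA at the cleavage furrow, stood at 14.4 and 18.3 CPM in the control libraries, 7.45 and 5.54 CPM under aging SNL, and 5.49 and 5.65 CPM under spesolimab. Racgap1, its partner at the midzone, stood at 26 and 28.5 CPM, 14.9 and 14.8 CPM, and 13.4 and 14.4 CPM in the same order, with the smallest error of the set (-0.88 ± 0.11, edgeR adjusted p = 0.155).

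The genes of anaphase and mitotic exit divided. Cdc20, the activator of the anaphase-promoting complex, stood at 15.4 and 23.3 CPM in the control libraries, 9.26 and 7.17 CPM under aging SNL, and 6.89 and 6.89 CPM under spesolimab (-1.24 ± 0.25, edgeR adjusted p = 0.193). Espl1, the protease separase that cuts cohesin, stood at 7.201 and 9.03 CPM, 3.73 and 2.89 CPM, and 3.15 and 3.35 CPM in the same order. Both fell in both fits, and Ube2c, a ubiquitin-conjugating enzyme of that complex, was lower in both aging SNL libraries. Pttg1, which encodes securin, the inhibitor of separase, did not follow them. It stood at 15.4 and 15.03 CPM in the control libraries, 26.8 and 13.3 CPM under aging SNL, and 16.0 and 15.7 CPM under spesolimab. Aging SNL replicate 1 was the highest of the 6 libraries and replicate 2 the lowest. Its log2 fold change of aging SNL against control was 0.40 ± 0.32 (edgeR adjusted p = 0.636), -0.19 without replicate 1 (adjusted p = 0.445) and 0.81 without replicate 2 (adjusted p = 0.00368). Per length, Pttg1 had the highest level of the 58 in control, with a mean of 62.7 TPM, ahead of Top2a at 44.4 TPM and Ube2c at 36.4 TPM, and Kif14 the lowest at 2.18 TPM. Across the 58 genes the log2 fold change of aging SNL had a Spearman rho of 0.25 with the mean control TPM, a description over genes that share the control libraries.

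**Figure D4:**
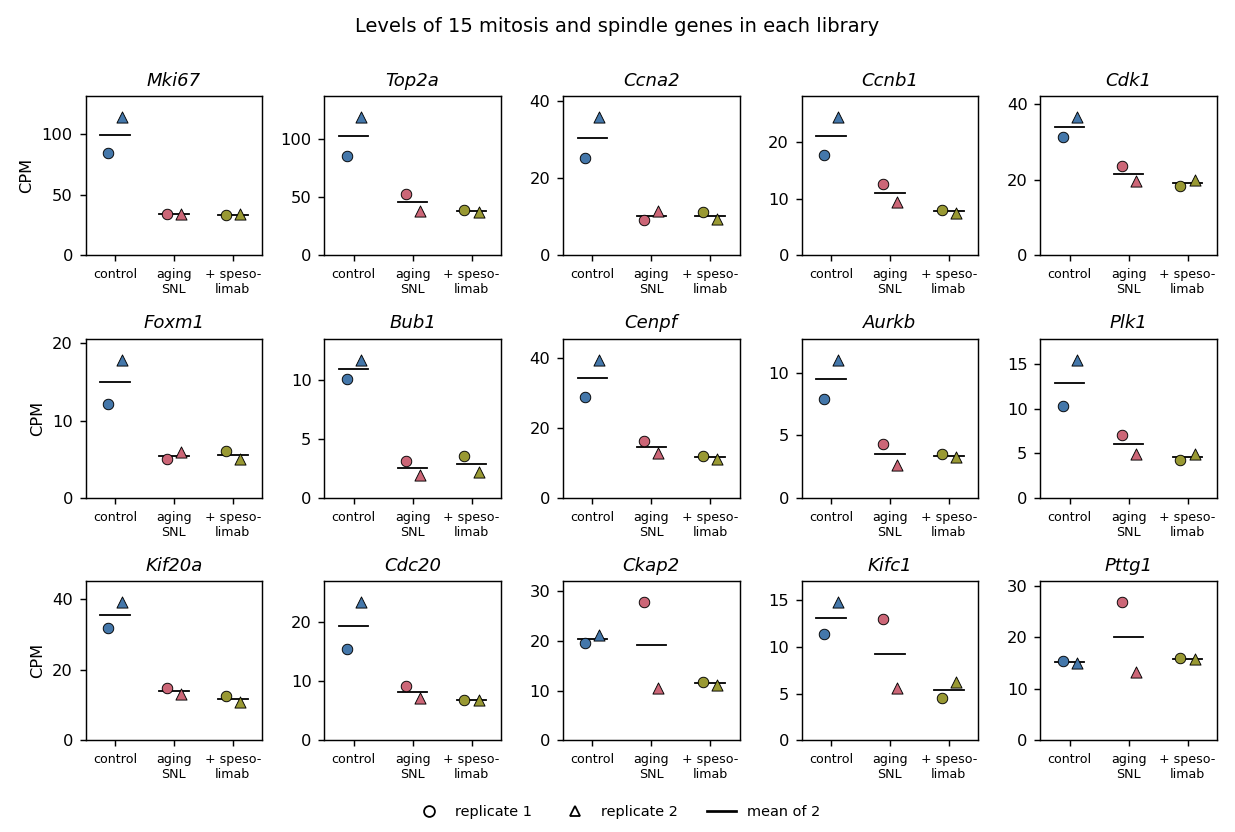
CPM of 15 of the genes in each library (circles replicate 1, triangles replicate 2, bars the mean of 2), by group, on linear axes from 0. The control libraries are the highest except for Ckap2, Kifc1 and Pttg1, and Pttg1 is highest in aging SNL replicate 1 at 26.8 CPM.

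The aging SNL replicates differed in these genes too. Replicate 1 was higher in 49 of 58, with a median log2 difference of 0.38, and 4 genes differed more than 2-fold: Ckap2 by 1.38, Kifc1 by 1.20, Hmmr by 1.02 and Pttg1 by 1.00 on the log2 scale. These were named after their values were seen. Ckap2, a protein that stabilises spindle microtubules, stood at 27.8 and 10.6 CPM under aging SNL against 19.6 and 21.1 CPM in control and 11.8 and 11.1 CPM under spesolimab. It fell without replicate 1 (log2 fold change -0.94, edgeR adjusted p = 0.024) and rose without replicate 2 (0.45, adjusted p = 0.035). Mybl2 and Kif15, a kinesin that holds spindle poles apart, went the other way, with replicate 1 lower by 0.45 and 0.40.

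Spesolimab with aging SNL was then set against aging SNL alone, the comparison that differs by the antibody. No gene of the set passed. In edgeR's test of 6 libraries 0 of 58 and 0 of 13399 genes (0%) were called, 0 of the 58 were lower at an unadjusted p under 0.05 (1.49% of all genes, and 392 genes in either direction), and DESeq2 called 0 of the 58 and 3 genes in all (0.0224%). The log2 fold change was negative in 48 of 58, with a median of -0.23 and single standard errors of 0.11 to 0.44, so that modest changes of single genes were not detectable. The groups did not overlap for 21 genes lower with spesolimab (13.4% of all genes) and 2 higher, Kif15 and Mybl2 (13.5%). In both spesolimab libraries the set stood near aging SNL replicate 2, with medians of -1.36 and -1.43 against -1.31, and no library of the treated cells had a summed level at or above the lowest control. Without aging SNL replicate 1 the median was -0.04 and 0 genes were called. Without replicate 2 it was -0.42, and the share of the 58 genes called lower was no larger than that of all genes.

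Spesolimab with aging SNL was also set against control, which shares its control libraries with the first comparison. With 6 libraries, edgeR called 0 of 58 and 0 genes in all (0%), and 55 of the 58 were lower at an unadjusted p under 0.05 (3.06% of all genes; 827 genes passed in either direction). The median log2 fold change was -1.41, and the groups did not overlap for 57 genes lower (24.6% of all genes) and 1 higher, Pttg1 (23.8%). With the 4 libraries compared, 47 of the 58 fell (1.37% of 13283 genes), and DESeq2 called 44 (0.702%), all among the 47. Those 47 included 10 of 12 kinesins, 7 of 7 spindle assembly proteins, 4 of 4 checkpoint and 4 of 4 cytokinesis genes. Kif20a had a log2 fold change of -1.60 ± 0.14 (edgeR adjusted p = 0.00687), Mki67 of -1.57 ± 0.14 (0.0087), Kif4, a chromosome-arm kinesin named after its values were seen, of -1.995 ± 0.22 (0.0118) and Ndc80 of -1.99 ± 0.25 (0.0172) in this fit. The 11 not called were Pttg1, Aurka, Plk4, Nuf2, Spc25, Birc5, Cdc25c, Cdkn3, Kif18a, Kif20b and Mybl2. Leaving out any control or spesolimab library from the fit of 6 gave 0 calls.

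**Figure D5:**
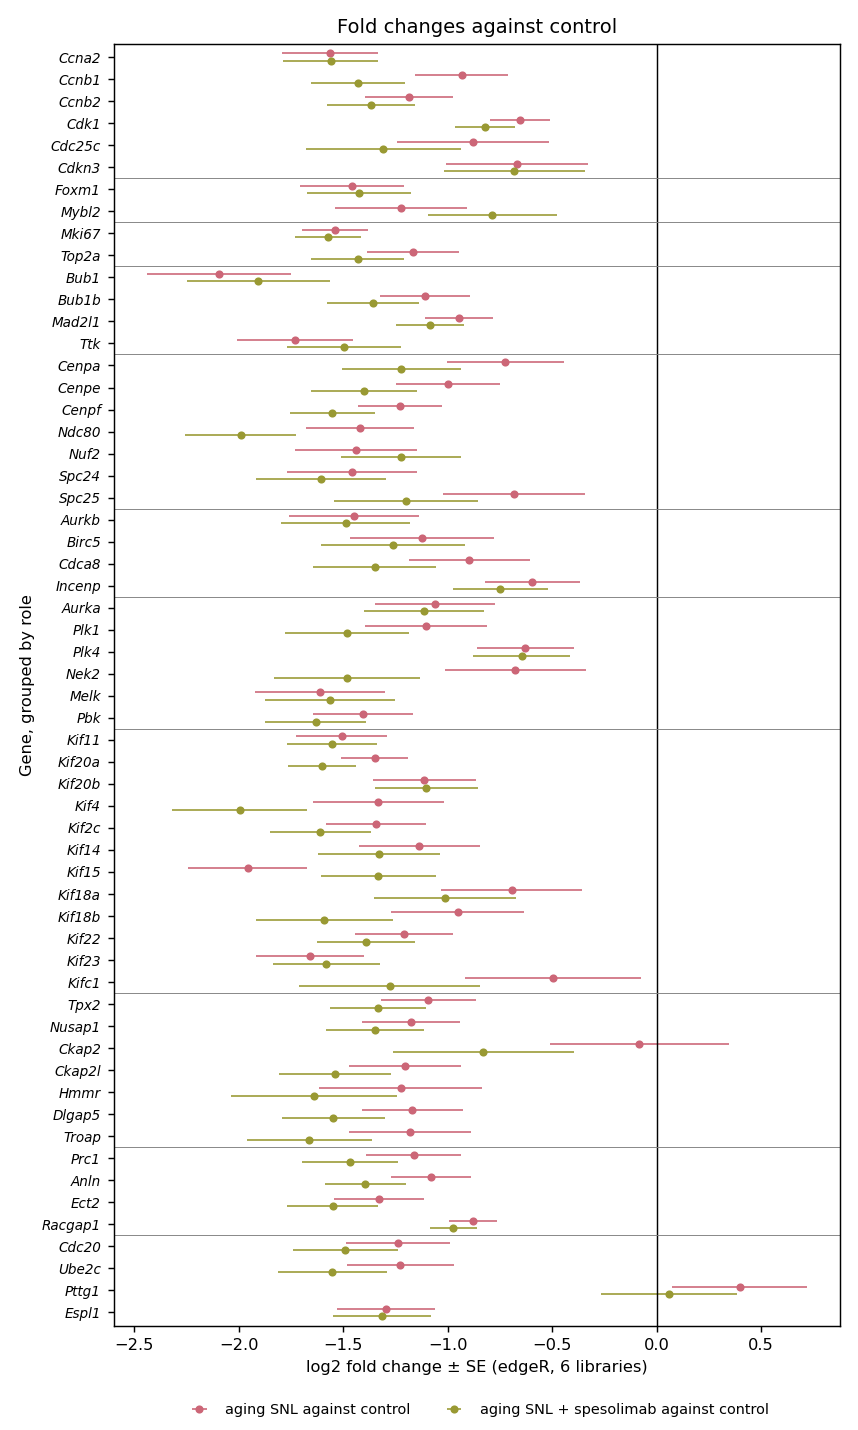
Log2 fold change with standard error of the 58 genes against control, for aging SNL (6 libraries) and for aging SNL with spesolimab (6 libraries), by role. The comparisons share the control libraries, Bub1 has the largest decrease in aging SNL at -2.09, and Pttg1 is the only gene above 0 in both.

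Related genes outside the set were followed in 7 lists. In aging SNL against control edgeR called 0 genes of each list with 6 libraries, so counts are given at an unadjusted p under 0.05, against 6.15% of all genes lower. Of 33 other centromere and kinetochore genes 29 were lower, 10 of them at that p (median log2 fold change -0.68). Of 29 other spindle and cytokinesis genes 27 were lower, 16 at that p (median -0.65). Knl1, the kinetochore scaffold for the checkpoint, stood at 12.5 and 15.1 CPM in the control libraries, 4.41 and 4.76 CPM under aging SNL, and 4.91 and 3.65 CPM under spesolimab (-1.59 ± 0.22, edgeR adjusted p = 0.155). Shcbp1, a midbody protein, stood at 7.03 and 9.70 CPM, 2.05 and 2.41 CPM, and 3.21 and 2.29 CPM in the same order. Both fell without either aging SNL replicate. The 16 condensin and cohesin genes divided by complex. The 8 condensin genes, whose products fold mitotic chromosomes, had a median of -0.68 with 5 lower at that p. The 8 genes of cohesin and its regulators had a median of -0.06 with 1 lower. Cohesin holds sister chromatids and acts through interphase as well. Ncapd2, a condensin I subunit, stood at 37.0 and 47.5 CPM in the control libraries, 24.9 and 22.9 CPM under aging SNL, and 22.7 and 23.7 CPM under spesolimab. The 14 subunits of the anaphase-promoting complex had a median of -0.07, with 0 lower and 1 higher at that p. The same list held Fzr1, a co-activator of the complex, and Fbxo5, its inhibitor known as EMI1, which were both lower at that p. Fbxo5 stood at 5.09 and 6.11 CPM in the control libraries, 1.68 and 2.59 CPM under aging SNL, and 2.51 and 1.77 CPM under spesolimab.

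Lists of genes that act before mitosis gave different counts. Of 23 DNA replication genes 23 were lower in aging SNL, 19 at that p, with a median of -1.01. Pclaf, a PCNA-binding protein of S phase, stood at 14.2 and 15.7 CPM in the control libraries, 2.795 and 2.35 CPM under aging SNL, and 3.56 and 3.65 CPM under spesolimab. Both aging SNL libraries were below both spesolimab libraries, and the log2 fold change of aging SNL against control was -2.54 ± 0.18 (edgeR adjusted p = 0.055, and 0.00682 and 0.000673 without aging SNL replicate 1 and 2). Relative to control, the mean of the replication genes was -1.10 and -1.03 for the aging SNL libraries and -0.75 and -0.89 for the spesolimab libraries, while the mean of the mitosis and spindle genes was -0.93 and -1.29, then -1.27 and -1.35. The difference between these lists was not tested. Of 11 G1 cyclins and kinases 7 were lower, 2 at that p (median -0.18), and of 19 DREAM and MuvB genes and CDK inhibitors 11 were lower, 2 at that p and 1 higher (median -0.10). Rbl1 and Rbl2 encode the pocket proteins of DREAM, p107 and p130. Rbl1 stood at 18.4 and 21.6 CPM in the control libraries, 12.2 and 14.5 CPM under aging SNL, and 13.8 and 13.8 CPM under spesolimab, and Rbl2 lay between 52.1 and 63.2 CPM in the 6 libraries with overlap. Of the cyclin D genes, whose products start G1 progression, Ccnd2 and Ccnd1 had log2 fold changes of -0.56 ± 0.12 and -0.54 ± 0.33 (edgeR adjusted p = 0.211 and 0.534). Ccnd3, named after its values were seen, went the other way, at 0.25 ± 0.11 (edgeR adjusted p = 0.43). Both aging SNL libraries were above both controls for Ccnd3. Ccnd1 stood at 150.9 and 161.9 CPM in the control libraries, 145.5 and 69.9 CPM under aging SNL, and 92.7 and 100.9 CPM under spesolimab, and its fold change without aging SNL replicate 1 was -1.16 (adjusted p = 0.00851) and without replicate 2 -0.11 (adjusted p = 0.47). Cdkn2a, the CDK inhibitor locus of p16, lay between 2.00 and 4.37 CPM, highest in control. Cdkn1a, the CDK inhibitor p21, stood at 98.5 and 136 CPM in the control libraries, 341 and 166 CPM under aging SNL, and 118 and 151 CPM under spesolimab, highest in aging SNL replicate 1 (log2 fold change 1.11 ± 0.37, edgeR adjusted p = 0.348). It rose without aging SNL replicate 2 (1.54, adjusted p = 0.00334) and did not pass without replicate 1 (0.51, adjusted p = 0.239).

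These lists were also counted without each aging SNL replicate, now at an adjusted p over all genes (1.61% and 12.3% of all genes called lower). Without replicate 1, 4 of the other centromere and kinetochore genes, 8 of the other spindle and cytokinesis genes and 7 of the replication genes fell, and their medians were -0.77, -0.75 and -0.81. Without replicate 2 the counts were 9, 10 and 15 and the medians -0.49, -0.57 and -1.15, and 1 gene of each of the first 2 lists rose. Condensin had 3 genes that fell in each fit (medians -0.95 and -0.62) and cohesin 0 and 3 (-0.05 and -0.10). The anaphase-promoting complex subunits had 0 and 2 (-0.03 and -0.05), the G1 genes 1 and 3 (-0.33 and -0.02), and the DREAM and CDK inhibitor list 0 and 3 (-0.09 and -0.09), where 2 of its genes rose without replicate 2. Of the genes named from these lists, Ncapd2 fell in both fits (edgeR adjusted p = 0.0436 and 0.0165). Fbxo5 (0.119 and 0.014), Rbl1 (0.148 and 0.0163) and Ccnd2 (0.0687 and 0.00518) passed without replicate 2 and not without replicate 1.

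Genes with and without a CHR had median fold changes close to each other. In aging SNL against control the 34 genes with a CHR had a median log2 fold change of -1.18 and the 14 without one -1.06. With spesolimab against control the medians were -1.41 and -1.30. The 14 without it were Birc5, Bub1, Ccnb1, Cenpe, Kif18a, Mad2l1, Melk, Mybl2, Nek2, Nuf2, Nusap1, Plk4, Pttg1 and Troap, so they hold both the gene with the largest decrease, Bub1, and the gene that was not lower, Pttg1. Only TTTGAA was counted as a CHR here. Among the 14, Birc5, Ccnb1, Cenpe and Plk4 held the related letters TTTAAA. Without aging SNL replicate 1 the aging SNL medians were -1.40 and -1.19 and without replicate 2 -0.95 and -0.83. No test was made of this difference.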

How the data were processed

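Poly(A) RNA of 6 libraries was sequenced from DNA nanoballs, per the labels' protocols. The submitters' processing notes name the build GRCm39 and the tools RSEM 1.3.1, Bowtie2 2.3.4.3 and DESeq2 1.4.5, with no role or order. Neither the annotation nor the strand setting is stated, and reads of overlapping, antisense or near-identical genes may be divided unevenly. The authors deposited expected counts per gene, unscaled, of which 12.3% of the values were not whole. The TPM columns were scaled by the authors per length and to a fixed total, per the file headers. A further 15 value columns (FPKM and group averages) were not used. Columns were matched to samples by the labels' descriptions.

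Expected counts were rounded. The test was that of edgeR 4.0.16 (R 4.3.3): filterByExpr (minimum count 10, minimum total 15; 13399 genes), TMM, a quasi-likelihood fit of 6 libraries with 3 residual degrees of freedom, and Benjamini-Hochberg adjustment over all genes at 0.05. Standard errors are the size of the log2 fold change over the square root of F. CPM uses TMM-scaled library sizes, and log2 levels a prior count of 2. Alternatives were DESeq2 1.42.0 (which uses the counts and its own size factors), edgeR with those size factors, no filter on low counts, limma 3.58.1 on log2(TPM + 1), the replicate number as a block, the 4 libraries compared alone, and each library left out. After the data were seen, the block was added to the fits that gave calls. The procedure was also run on simulated counts. Their spread was smaller than the fit of all 6 libraries gave and no library stood apart, so that run is not used to judge the calls here. Genes were named by a rule: in each role the 2 members with the lowest p in aging SNL against control, 8 members always (Mki67, Top2a, Cdk1, Ccnb1, Plk1, Aurkb, Foxm1 and Mybl2), any member of opposite sign to the median, the gene with the lowest p of each related list, and always Cdkn1a, Cdkn2a, Ccnd1 and Rbl2. The members and lists were chosen with earlier results of these data known. Promoter letters were searched in RefSeq's table of a build that differs from that of the counts. Entries with the full window were kept and matched by gene ID, with no coordinates taken between the builds.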

Additional observations from a re-analysis of the deposited data

How the results depend on the processing

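For aging SNL against control the fit of 6 libraries called 0 genes, DESeq2 445 with 38 of the 58 members, and leaving out 1 library each gave 0 to 3525 genes and 0 to 41 members. For spesolimab against aging SNL DESeq2 called 3 genes, and leaving out 1 library each gave 0 to 2810 genes and 0 to 6 members. For spesolimab against control DESeq2 called 160 genes with 44 members, the 4 libraries alone 382 with 47, and leaving out 1 library each 0 to 385 genes and 0 to 47 members. The calls above 0 arose where an aging SNL library was left out or not in the fit, and with DESeq2. No calls came from edgeR with the size factors of DESeq2, with no filter, or with limma on log2(TPM + 1), in which 1977, 390 and 724 genes had an unadjusted p under 0.05 in the order of the comparisons. In that limma fit the median of all genes moved to -0.22 for aging SNL against control and 0.14 for spesolimab against aging SNL, beside member medians of -1.22 and -0.04. The member median was -0.92 to -1.39 for aging SNL against control over the fits that left out 1 library, and -1.17 to -1.61 for spesolimab against control.

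Reversed signs were few in the comparisons with control. Pttg1 ranged from -0.19 to 0.81 in aging SNL against control over the fits that left out 1 library, the lowest without aging SNL replicate 1, and went to -0.075 in spesolimab against control with limma, Rbl2 to -0.14 with limma, and Cdkn1a ranged from -0.012 without control replicate 1 to 0.45 without control replicate 2 in spesolimab against control. For spesolimab against aging SNL, Foxm1 ranged from -0.11 without spesolimab replicate 1 to 0.17 without spesolimab replicate 2 and was -0.077 without aging SNL replicate 1, Mki67 to 0.12 with limma, and Aurkb to 0.13 with limma, 0.016 without spesolimab replicate 2 and, over all left-out libraries, -0.34 to 0.35. There, 21 of the 58 members changed sign without aging SNL replicate 1 and 13 with limma. The causes were not tested.

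With the replicate number as a block edgeR called 0 genes in each comparison, with member medians of -1.17, -0.23 and -1.41. Same-numbered libraries correlated in their deviations from the group means by 0.25, 0.42 and 0.29 in the 3 pairs of groups, and macrophage markers were higher in replicate 1 of every group. The numbers thus carry a shared signal. The column names also divide by replicate number. In every group that of replicate 2 starts with a lower-case letter and carries a suffix, and that of replicate 1 does neither. No label says what this naming stands for or names a shared source, and there are only 2 numbers. The block was also put on the fits that gave calls, a choice made after seeing the data. With the replicate block DESeq2 called 321 genes with 28 members, 3 with 0, and 141 with 31 in the order of the comparisons, and the 4 libraries alone, with 1 residual degree of freedom, gave 0, 0, and 2081 with 56. With the replicate block and an aging SNL library left out, aging SNL against control gave 2067 and 5469 genes with 56 and 46 members (without replicate 1 and 2; 2 of the 46 rose) and a median of -0.83 in the latter, spesolimab against aging SNL 195 and 4714 with 0 and 28, and spesolimab against control 2204 and 2269 with 56 and 57. In the fit without aging SNL replicate 1 the median of spesolimab against aging SNL then became 0.11, against -0.53 without replicate 2. How far depth limited the tests was not measured.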

Other observations

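Some genes of the related lists, picked here after their values were seen, were far from the rest in aging SNL replicate 1. Psrc1, a spindle protein, stood at 66.1 CPM there and 11.45 to 15.8 CPM in the other 5 libraries. Zwint, a kinetochore protein, stood at 87.3 CPM there and 41.2 to 44.2 CPM in the others. Cdkn1c, the CDK inhibitor p57, went the other way, at 92.5 CPM there and 421.4 to 567.8 CPM in the others. In that library the chondrocyte markers summed to 14140 CPM, and their part in these values was not tested.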
